A study of Mus musculus with 2 samples.

Results

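The genes described here are the F-box proteins and the ubiquitin-specific proteases (USPs), measured in CD8+ T cells of Bcl11bF/F/dLck-iCre mice against wild-type ones. They were taken by name from 2 two-colour arrays: every gene probe named Fbxo, Fbxl, Fbxw or Usp with a number, leaving out Usp18. The rule found 117 genes, 68 F-box and 49 USP genes, among 27599 on the array. A gene counted as measured where the same dye channel stood well above background on each array, and its brightest probe stood for it. That held for 69 of the 117 (59.0%), 40 F-box and 29 USP genes.

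F-box proteins are the substrate receptors of SCF ubiquitin ligases, in which Skp1 and the scaffold Cul1 join the F-box protein to a catalytic RING subunit. The Fbxl proteins carry leucine-rich repeats, the Fbxw proteins carry WD40 repeats and the Fbxo proteins carry other or no known substrate domains. USPs are cysteine proteases that remove ubiquitin from proteins and so can oppose such ligases. In T cells these enzymes act on cell cycle regulators, on the DNA damage response and on antigen receptor and NF-kB signalling.

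The tested cells, called deficient here, were CD8+ T cells of Bcl11bF/F/dLck-iCre mice. In these mice a Cre that the distal Lck promoter drives in T cells targets the floxed Bcl11b alleles for deletion. The deficient cells were set against CD8+ T cells of wild-type mice. Both groups came from mice infected 6 days earlier with Listeria monocytogenes-OVA and were isolated by negative selection to a stated purity over 90%; sex, age and the number of mice in a sample were not given in the sources used here. Each of the 2 arrays held one deficient sample (Cy5, red) and one wild-type sample (Cy3, green), so dye and genotype cannot be told apart. The labels name the arrays biological replicates 1 and 2. All ratios are log2, deficient over wild type, and a gene is called at a limma adjusted p under 0.05, two-sided.

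Bcl11b, the zinc-finger transcription factor targeted in these mice, had log2 ratios of -0.69 on replicate 1 and -2.95 on replicate 2 (mean -1.82, adjusted p = 6.55e-04). Whether its probe lies in the deleted part was not determined here. Between 26.0% and 32.4% of gene spots were well above background in a channel. Negative control spots had medians of 968 and 707 in the deficient channel and 326.5 and 406 in the wild-type channel on replicates 1 and 2, so dim spots in the red channel stand on a higher floor. Markers of other cells moved with genotype. All 17 measured macrophage markers were called higher in deficient samples, with summed normalized intensities of 185967 and 266900 there against 26070 and 27953 in wild-type samples. B-cell markers were higher in 7 of 9, summing to 106019 and 299237 in deficient samples against 42514 and 48536 in wild-type samples. Erythroid markers were higher in 4 of 5, with 284906 and 431199 in deficient and 143053 and 84080 in wild-type samples. Neutrophil markers were higher in 3 of 8, with 70458 and 67832 in deficient and 10643 and 14008 in wild-type samples. NK-cell markers were higher in 3 of 6, with 42839 and 48543 in deficient and 13473 and 21786 in wild-type samples. Of the 17 T-cell markers, 8 were lower, with summed intensities of 101519 and 113379 in deficient samples and 178731 and 325673 in wild-type samples; Cd28 was not well above background in deficient samples. Of the CD4 T-cell markers 0 of 2 were called by limma or had an unadjusted p under 0.05. The part of these markers in the ratios below was not tested, and in bulk RNA fewer T cells and less RNA per T cell cannot be told apart.

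Most measured F-box and USP genes lay below 0, and few passed the test. Of the 69, 7 were called lower (10.1%), against 5.97% of the 9932 genes tested, and 2 were called higher (2.90%), against 3.66%. In either direction 9 of 69 were called (13.0%), against 9.64%. Over all genes the calls were 593 lower and 364 higher, 561 lower and 538 higher with each array centred on the median of its genes, and 348 lower and 69 higher with median centring in place of loess. Under that median centring the members' calls were 4 lower and 0 higher. With each array centred on the median of its genes 7 members were called, and Fbxo34 and Usp48 were not. The 7 lower genes were Usp28, Fbxl12, Fbxo11, Usp11, Fbxl14, Fbxo34 and Usp48, and the 2 higher genes were Fbxo6 and Usp29. In all, 45 members were below 0 on both arrays (65.2%, against 41.6% of all genes). Above 0 on both were 13 (18.8%, against 32.5%), and 11 had opposite signs. Of the 45, 29 were among the 34 members kept through the wild-type channel alone, where the filter favours lower ratios. So were 6 of the 7 lower calls. These shares are therefore no support for a shift of the members. The median log2 ratio was -0.42 over the members and -0.12 over all genes, a difference of -0.31. The 60 members that were not called ranged from -1.07 to 0.60. The F-box genes had a median of -0.35 and the USPs one of -0.54. Within the F-box genes, the median was -0.38 for the 11 of 20 Fbxl genes measured, with 2 called lower. It was -0.31 for 23 of 35 Fbxo genes, with 2 lower and 1 higher. For 6 of 13 Fbxw genes it was -0.50, with 0 called by limma and 1 at an unadjusted p under 0.05, Fbxw5. At that unadjusted level 1422 of all 9932 genes were lower and 753 higher.

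**Figure D1:**
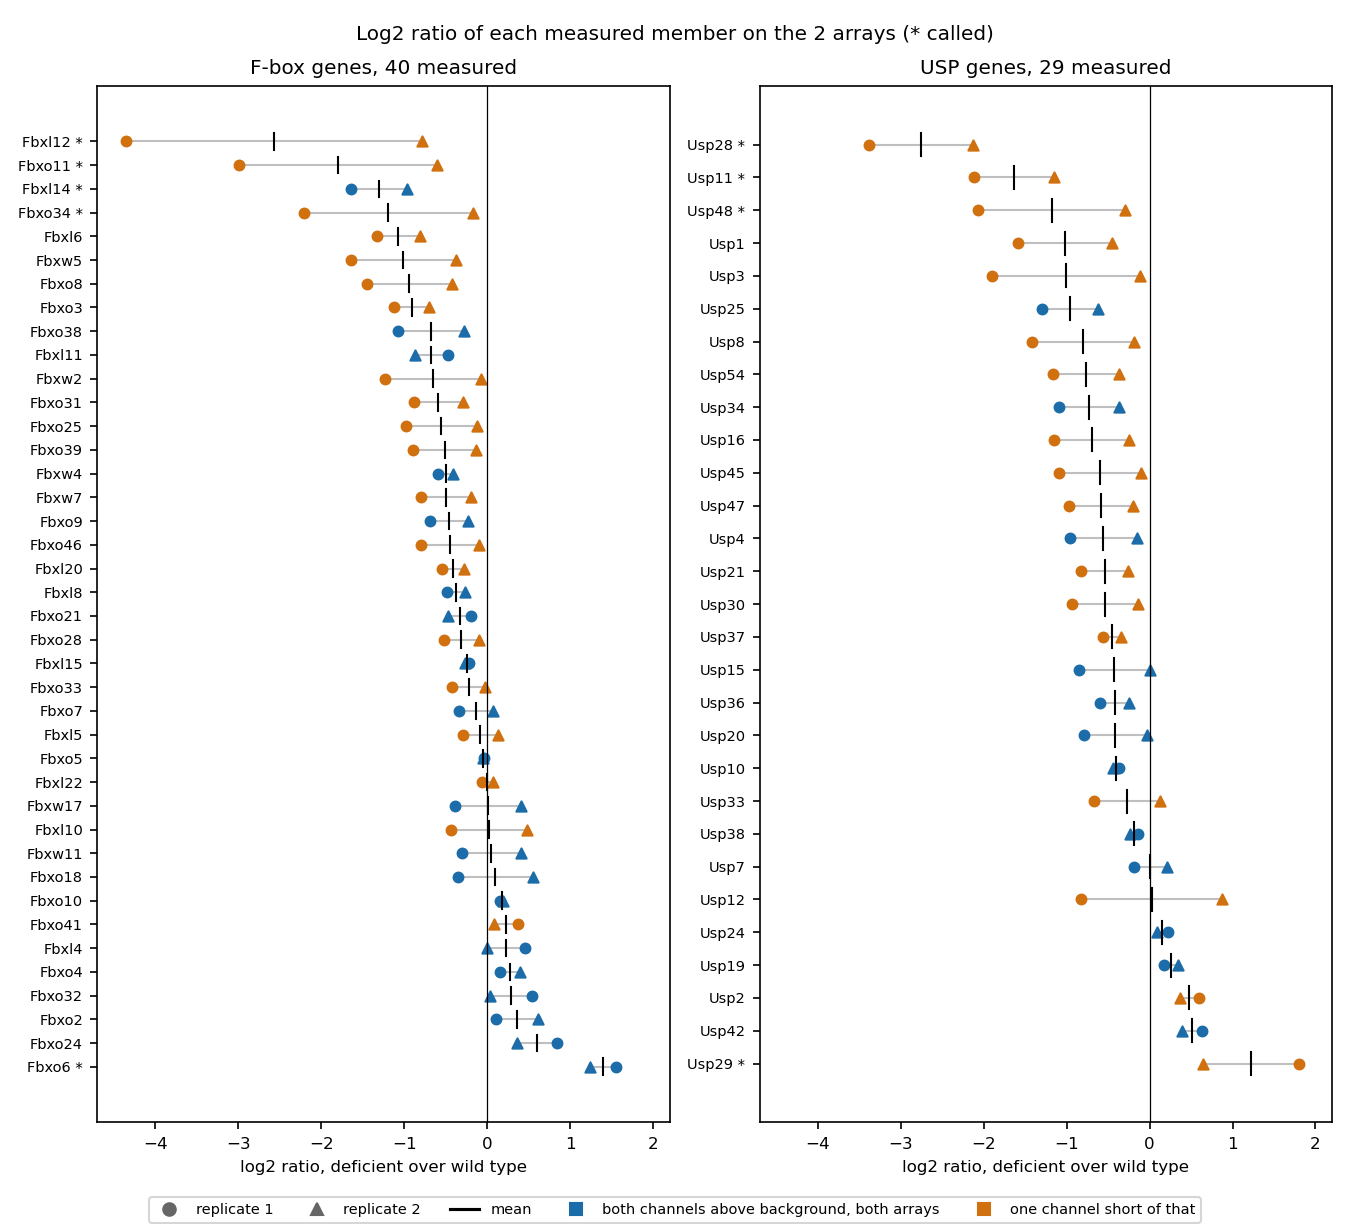
Log2 ratio (x axis, deficient over wild type) of each measured F-box gene (left) and USP (right) on replicate 1 (circles) and replicate 2 (triangles), with the mean as a bar; stars mark called genes and orange marks genes with a channel short of the background criterion. Usp28 and Fbxl12 lie lowest and Fbxo6 and Usp29 highest, and replicate 1 extends further left than replicate 2 for most genes.

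Usp28 was lower in deficient cells, with the lowest mean ratio as measured of the 69. It removes ubiquitin from Myc, opposing the ligase that contains Fbxw7, and binds Trp53bp1 in the DNA damage response. Its probe (NM_175482, chr9:48794173-48794231, mm8) had normalized intensities of 192 and 640 in deficient samples and 2013 and 2812 in wild-type samples. Intensities here and below were not scaled between arrays, so samples are to be compared within an array. The log2 ratios were -3.39 and -2.13, with a mean of -2.76 ± 0.89 (SD, n = 2) and an adjusted p of 1.33e-08. On replicate 1 the deficient channel missed the background criterion, so -3.39 is not a measured fold and the mean rests in part on it. On replicate 2 all channels passed, with a ratio of -2.13.

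Usp11 is a protease of the DNA repair response that interacts with Brca2. Its log2 ratios were below -1 on both arrays, as were those of Usp28 and of no other measured member. Below -1 on both arrays were 1.87% of all genes. Its probe (NM_145628, chrX:19877111-19877170, mm8) had 253 and 496 in deficient samples, not well above background on either array, and 1097 and 1108 in wild-type samples. The measured mean log2 ratio was -1.64 ± 0.68 (SD, n = 2; adjusted p = 0.00283). With the deficient level taken as a bound, per channel after loess and Aquantile normalization, the wild-type level averaged at least 2.64-fold higher over the 2 arrays. On replicate 2 alone the ratio was -1.16, a smaller difference than that average.

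Usp48, a nuclear protease that acts on the NF-kB subunit RelA, stood at the edge of the test. It had 306 and 1158 in deficient samples and 1281 and 1421 in wild-type samples. On replicate 1 the deficient channel missed the background criterion. Its ratios of -2.06 and -0.30 gave a mean of -1.18 ± 1.25 (SD, n = 2; adjusted p = 0.04995). Its other measured probes gave -1.43 and -0.06, and -0.22 and 0.18, on replicates 1 and 2. Of 11 other processing settings that could test it, it passed 1, with means between -2.17 and -0.02. The setting it passed, Aquantile normalization between arrays, called the same members as the reported fit.

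Fbxl12 was the F-box gene with the lowest mean ratio as measured, and most of its difference came from replicate 1. Fbxl12 directs the degradation of cyclin-dependent kinase inhibitors and of the kinase Camk1. Its probe (NM_013911, chr9:20388516-20388575, mm8) had 85.1 and 992 in deficient samples and 1747 and 1711 in wild-type samples. The wild-type samples were nearly level, and the deficient sample of replicate 1 lay far below that of replicate 2. The deficient level on replicate 1 was not well above background, so the ratio of -4.36 there is not a measured fold. On replicate 2, where all channels passed, the ratio was -0.79. The mean was -2.57 ± 2.53 (SD, n = 2; adjusted p = 1.64e-07). The adjusted p does not reflect that SD, because limma gave every gene the same standard error of 0.42.

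Fbxo11, the receptor that directs Bcl6 for degradation in B cells, had the same form. It had 170 and 758 in deficient samples and 1346 and 1154 in wild-type samples, with log2 ratios of -2.99 and -0.61. Its deficient channel too missed the background criterion on replicate 1, so -2.99 is not a measured fold. The mean was -1.80 ± 1.68 (SD, n = 2; adjusted p = 8.09e-04). Fbxo34 had 103 and 433 in deficient samples, not well above background on either array, and 474 and 488 in wild-type samples. Its measured mean was -1.19 ± 1.44 (SD, n = 2, limma adjusted p = 0.0472). As an average over the 2 arrays, the bound puts wild type at least 1.20-fold higher. On replicate 2 its ratio was -0.18, so the samples of that pair were close.

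Fbxl14, which targets the transcription factor Snail, was the one lower gene detected in both channels on both arrays. It had 903 and 2099 in deficient samples and 2816 and 4106 in wild-type samples, with log2 ratios of -1.64 and -0.97. The mean was -1.30 ± 0.48 (SD, n = 2; adjusted p = 0.0259). A second, dimmer probe of Fbxl14 gave 0.42 and -0.31, so its probes disagree in sign on replicate 1.

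Fbxo6 was the clearest gene in the other direction. It binds high-mannose glycoproteins and takes part in the degradation of misfolded glycoproteins from the endoplasmic reticulum. Its probe (NM_015797, chr4:146989587-146989645, mm8) had 3786 and 5494 in deficient samples and 1285 and 2316 in wild-type samples, with the deficient sample higher on each array. The log2 ratios of 1.56 and 1.25 gave a mean of 1.40 ± 0.22 (SD, n = 2; adjusted p = 0.0145). Above 1 on both arrays were 2.59% of all genes and, of the members, Fbxo6 alone (1.45%). A second Fbxo6 probe was not well above background and had ratios of -0.51 and 0.33. Usp29, an imprinted gene of the Peg3 region, had 1418 and 615 in deficient samples and 408 and 392 in wild-type samples, where it missed the background criterion on replicate 2. Its mean was 1.22 ± 0.81 (SD, n = 2; adjusted p = 0.0396), with 1.80 on replicate 1 and 0.65 on replicate 2. As given above, macrophage markers were higher in the same samples; their part in these values was not tested.

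**Figure D2:**
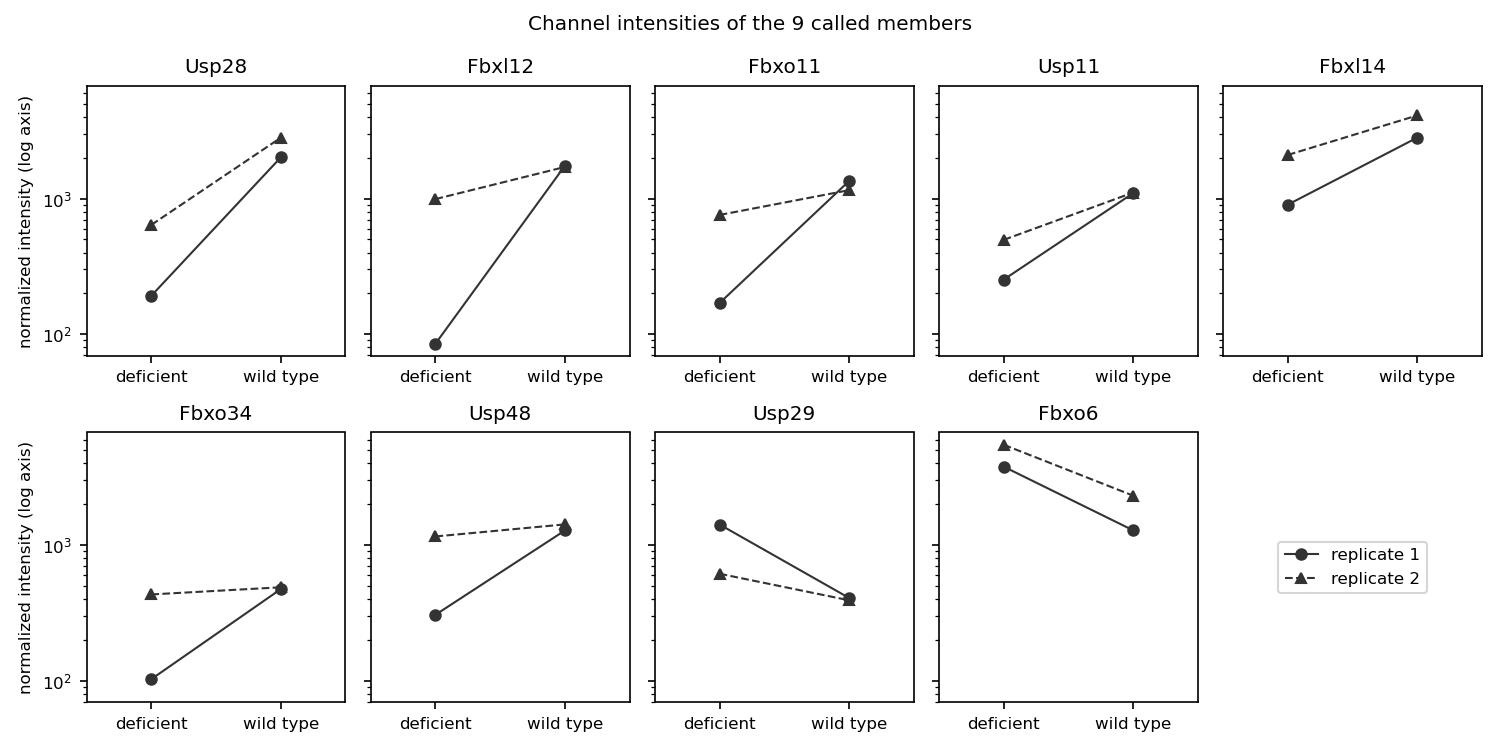
Normalized intensity (log axis) of the 9 called genes in deficient (left of each panel) and wild-type samples (right), each line joining the samples of one array. Fbxl12, Fbxo11, Fbxo34 and Usp48 slope steeply on replicate 1 and little on replicate 2, Usp28, Usp11 and Fbxl14 slope on both arrays but more on replicate 1, and Fbxo6 slopes nearly alike on both.

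None of these 9 calls held under every setting tried. All were lost when dim probes were not filtered and when the channels were fitted separately. With the Feature Extraction ratios Usp28 alone passed, and its adjusted p stayed under the threshold in 8 of 10 settings. These settings are not independent: the deposited table nearly repeats the Feature Extraction ratios, and Aquantile normalization called the same 9 members as reported. Usp28 could not enter the setting that required both channels to pass. Without replicate 1 the ratios are those of replicate 2, of which Usp28, Usp11 and Fbxo6 exceed 2-fold.

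The promoters of the called genes are shown for 4 of them. These are the 2 USPs with log2 ratios below -1 on both arrays, the F-box gene with the lowest mean ratio and the highest F-box gene. Each is 250 bases before to 50 after the most upstream transcript start in RefSeq (GRCm38.p6), 5′ to 3′ on the gene's strand. Fbxo6 had 3 such windows and Fbxl12 had 2, and their other windows were not looked at. Capitals mark matches, on either strand, to GGCCGG, a GC-rich element that Bcl11b was reported to bind, or to CCGGAAG, the core of ETS-family sites.
Usp28 (chr9:48985135-48985434, + strand): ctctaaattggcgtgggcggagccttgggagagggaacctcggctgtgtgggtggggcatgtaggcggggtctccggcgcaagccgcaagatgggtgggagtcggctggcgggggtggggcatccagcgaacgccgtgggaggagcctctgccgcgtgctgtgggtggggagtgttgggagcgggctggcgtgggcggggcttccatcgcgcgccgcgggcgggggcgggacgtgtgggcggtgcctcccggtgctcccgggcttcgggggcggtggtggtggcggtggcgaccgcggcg
Usp11 (chrX:20703659-20703958, + strand): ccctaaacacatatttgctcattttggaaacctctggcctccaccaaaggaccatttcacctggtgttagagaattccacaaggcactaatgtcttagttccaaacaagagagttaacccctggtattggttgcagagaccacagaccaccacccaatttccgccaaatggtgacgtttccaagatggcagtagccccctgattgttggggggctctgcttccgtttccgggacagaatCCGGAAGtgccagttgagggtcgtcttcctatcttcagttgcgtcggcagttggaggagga
Fbxl12 (chr9:20644718-20645017, - strand): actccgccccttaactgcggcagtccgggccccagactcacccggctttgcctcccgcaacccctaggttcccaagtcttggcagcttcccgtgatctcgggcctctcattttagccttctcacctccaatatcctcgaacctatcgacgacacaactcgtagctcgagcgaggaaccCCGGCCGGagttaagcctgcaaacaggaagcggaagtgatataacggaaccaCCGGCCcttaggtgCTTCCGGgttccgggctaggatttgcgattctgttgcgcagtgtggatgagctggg
Fbxo6 (chr4:148152086-148152385, - strand): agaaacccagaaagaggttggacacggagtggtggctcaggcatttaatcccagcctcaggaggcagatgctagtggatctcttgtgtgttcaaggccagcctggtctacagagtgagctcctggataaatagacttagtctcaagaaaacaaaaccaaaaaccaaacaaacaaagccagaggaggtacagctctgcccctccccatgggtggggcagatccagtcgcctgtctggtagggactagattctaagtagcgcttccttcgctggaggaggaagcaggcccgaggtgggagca

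These windows differ in composition. Usp28 has 35 CpG dinucleotides and no match to either motif, Fbxl12 has 22 with 3 matches to GGCCGG (a pair of them overlapping) and 1 to CCGGAAG, Usp11 has 8 with 1 match to CCGGAAG, and Fbxo6 has 5 and no match. Of the 69 measured genes, 56 had a promoter in the table, and their median GC content was 64.5%, against 52.7% over 27025 genes. All genes in this paragraph are those 27025, whether measured on the arrays or not. GGCCGG occurred in 20 of the 56 (35.7%) and in 18.8% of all genes, and in 4 of the 9 called genes. CCGGAAG occurred in 15 of the 56 (26.8%) and in 9.14% of all genes. TGACCA, an element reported for the paralogue Bcl11a, occurred in 3 (5.36%, against 13.7%), CACGTG, the E-box that Myc binds, in 4 (7.14%, against 7.24%) and TATAAA, the TATA box, in 1 (1.79%, against 14.2%). All were searched on both strands. The 33 members that were not measured but had a promoter had a median GC content of 57.7%. GGCCGG occurred in 30.3% of them and CCGGAAG in 9.09%. The members were not set against other measured genes, so these shares do not show an enrichment of either motif among measured genes. How far the shares go with the GC content of the windows was not tested.

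Counts by role and by list are to be read beside 5.97% of all genes lower, 3.66% higher and a median of -0.12. At an unadjusted limma p under 0.05, 1422 of all 9932 genes were lower and 753 higher. The USPs of the p53 and DNA damage responses were all measured, 8 of 8, and 2 of them, Usp28 and Usp11, were lower, with 0 higher and a median of -0.57. Usp1, which removes ubiquitin from Fancd2 and Pcna, had ratios of -1.59 and -0.45 and did not pass (mean -1.02, adjusted p = 0.108). Usp47 (-0.58), Usp4 (-0.56) and Usp10 (-0.40) did not pass. Usp7, which acts on p53 and its ligase Mdm2, had 2492 and 6341 in deficient samples and 2848 and 5466 in wild-type samples. Its ratios were -0.19 and 0.21, with a mean of 0.01. Usp24 averaged 0.16. Of the 7 USPs listed for histones, 3 were measured and 0 were called by limma, with 1 at an unadjusted p under 0.05. These were Usp3 (-1.90 and -0.12, mean -1.01), Usp16 (-0.70) and Usp21 (-0.54). All 3 measured probes of Usp3 were below 0 on both arrays.

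Of 9 USPs of T-cell and NF-kB signalling, 8 were measured, with a median of -0.65, 1 lower (Usp48) and 0 higher. Usp25, the paralogue of Usp28, was detected in all channels. It had 715 and 1595 in deficient samples and 1758 and 2449 in wild-type samples, a mean of -0.96 ± 0.48 (SD, n = 2; adjusted p = 0.137). Its second probe gave -2.48 and -0.58, and Usp25 passed in 2 of 11 other settings, the mean of a gene's probes and the requirement that both channels be detected. Usp8, which acts at endosomes, averaged -0.80, Usp34 -0.73 and Usp15, which stabilises Mdm2 in T cells, -0.42; none passed. Usp12 had opposite ratios, -0.83 on replicate 1 and 0.87 on replicate 2. Usp2 had 526 and 637 in deficient samples and 348 and 495 in wild-type samples, not well above background there. Its mean was 0.48 (limma adjusted p = 0.52). As a bound averaged over the 2 arrays, the deficient level was at least 1.34-fold higher. Of the 5 USPs of endosomes, mitochondria and membranes 0 were called by limma, or at an unadjusted p under 0.05: beside Usp8 these were Usp30 of the mitochondrial outer membrane (-0.54), Usp20 (-0.41), Usp33 (-0.27) and Usp19 (0.26). Usp42 averaged 0.51 and did not pass.

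The F-box genes of the cell cycle, 6 of 6 measured, had a median of -0.27 and 1 call, Fbxl12. Fbxw7, the receptor for Myc, cyclin E and Notch, had 290 and 485 in deficient samples and 505 and 556 in wild-type samples, a mean of -0.50 (adjusted p = 0.505). Fbxo31 (-0.59) and Fbxo4 (0.28), both reported for cyclin D1, did not pass. The deficient channel of that Fbxo31 probe missed the background criterion on replicate 1. A brighter Fbxo31 probe under another array name, outside the name rule, passed in all channels and gave -0.24 and -0.23. Fbxo5, the inhibitor of the anaphase-promoting complex, was close to level, with 623 and 710 in deficient samples and 642 and 737 in wild-type samples. Fbxw11, a receptor for beta-catenin and the NF-kB inhibitor, averaged 0.05.

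Among glycoprotein-binding F-box genes 2 of 5 were measured. Beside Fbxo6 this was Fbxo2, its neighbour but one on chromosome 4 across Fbxo44, which was above background in no channel. Fbxo2 was the brightest member, with 4661 and 15579 in deficient samples and 4328 and 10146 in wild-type samples, and did not pass (mean 0.36, adjusted p = 0.642). Its other measured probes were below 0 on both arrays. The chromatin-binding pair Fbxl11 (Kdm2a) and Fbxl10 (Kdm2b), which demethylate histones, averaged -0.67 and 0.02, the mitochondrial pair Fbxo7 and Fbxl4 averaged -0.13 and 0.23, and the muscle pair Fbxo25 and Fbxo32 (atrogin-1) averaged -0.55 and 0.29. Fbxl5, the iron sensor that targets iron regulatory proteins, averaged -0.08. None of these passed. Fbxl6 (-1.07, adjusted p = 0.0856) and Fbxw5 (-1.01) came closest below the calls among F-box genes, and Fbxo24 (0.60) closest above. Just short of these lay Fbxo8 (-0.94) and Fbxo3 (-0.91). In all, 20 members had a mean above 0, Fbxo41 (0.22), Fbxo10 (0.18) and Fbxo18 (0.10) among them.

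Of the 69 genes, 17 had more than 1 measured probe. In 12 of these all probes had the same sign of mean ratio, and in 5 they did not: Fbxl14, Fbxo21, Fbxl5, Usp19 and Fbxo2. The other 52 rest on 1 probe each under the member names, and Fbxo31 has the further probe given above.

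**Figure D3:**
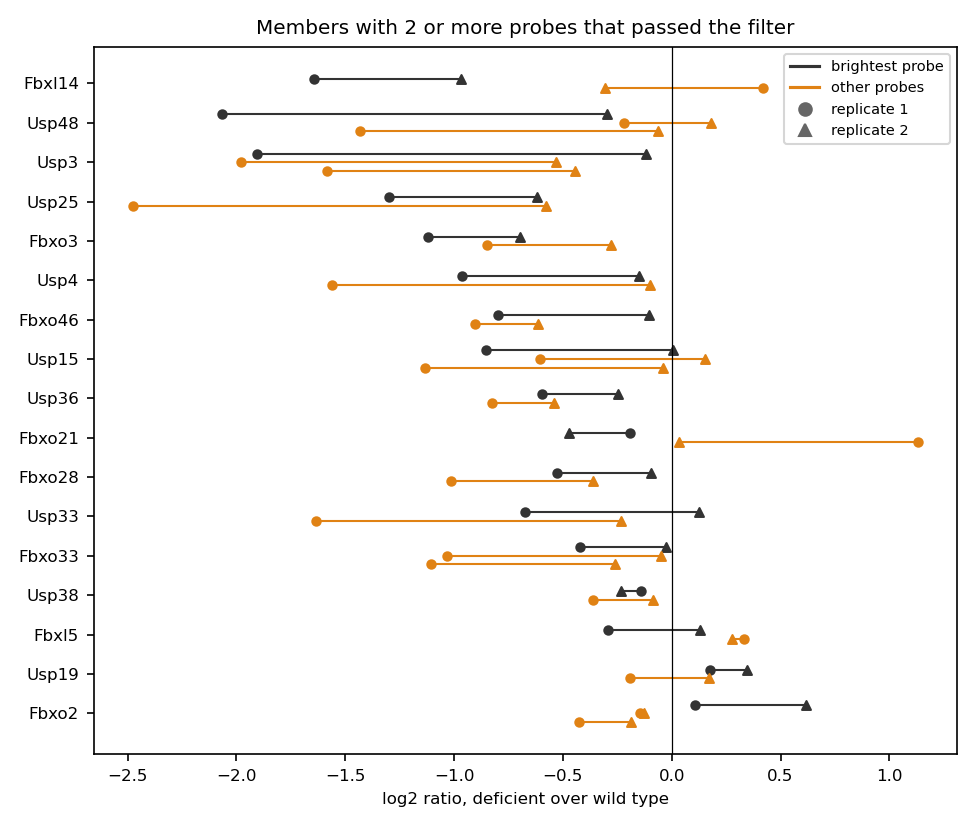
Log2 ratio (x axis) of every measured probe of the 17 genes with several, the brightest probe in black and the others in orange, on replicate 1 (circles) and replicate 2 (triangles). The 3 probes of Usp3 all lie below 0, and the probes of Fbxl14 and Fbxo21 lie on opposite sides on replicate 1.

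The criterion on background bears on these counts. In 34 of the 69 (49.3%, against 31.5% of all genes) the wild-type channel alone passed it on both arrays. All 34 missed it in the deficient channel on replicate 1, and 6 of them on replicate 2 as well. Passing through the wild-type channel favours lower ratios, so counts over these genes are no support for a shift. These 34 had a median of -0.60 and 6 calls, all lower; all 3132 such genes had a median of -0.68, with 519 lower. In 32 members (46.4%, against 57.6%) both channels passed on both arrays. Their median was -0.16, against 0.06 over the 5720 such genes. Fbxl14 was lower and Fbxo6 higher, beside 74 lower and 316 higher of the 5720. Of these 32 members, 16 were below 0 on both arrays, 10 above on both and 6 opposite. Of the 5720 genes, 1777 were below 0 on both arrays, 2201 above on both and 1742 opposite. The deficient channel alone passed in 3 members (4.35%, against 10.9%): Usp29, Usp2 and Fbxo41. Among the 48 members not measured, 30 were well above background in no channel of either array, Usp14, Usp22 and Usp39 among them, and 18 passed somewhere but short of the rule, Usp5 and Usp9x among them. Usp6nl, which is named like a USP but is a Rab GTPase regulator, was one of those 18.

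Ratios were spread more widely on replicate 1. On replicate 1 the members had a median of -0.68 and an SD of 1.00, with 21 below -1 (30.4%). All genes there had a median of -0.22, an SD of 0.96 and 21.6% below -1. On replicate 2 the members had a median of -0.14, an SD of 0.49 and 2 below -1 (2.90%). Over all genes the median there was -0.01, the SD 0.65 and the share below -1 2.52%. Replicate 1 was the lower in 54 of the 69, and in 6141 of 9932 genes. Bcl11b ran the other way, with its lower ratio on replicate 2. Across the 69 genes the ratios of the arrays had a Pearson r of 0.714 and a Spearman rho of 0.690, as a description over genes that share arrays and dye orientation, against 0.594 and 0.613 over all genes. Without Usp28 and Fbxl12, r was 0.671.

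**Figure D4:**
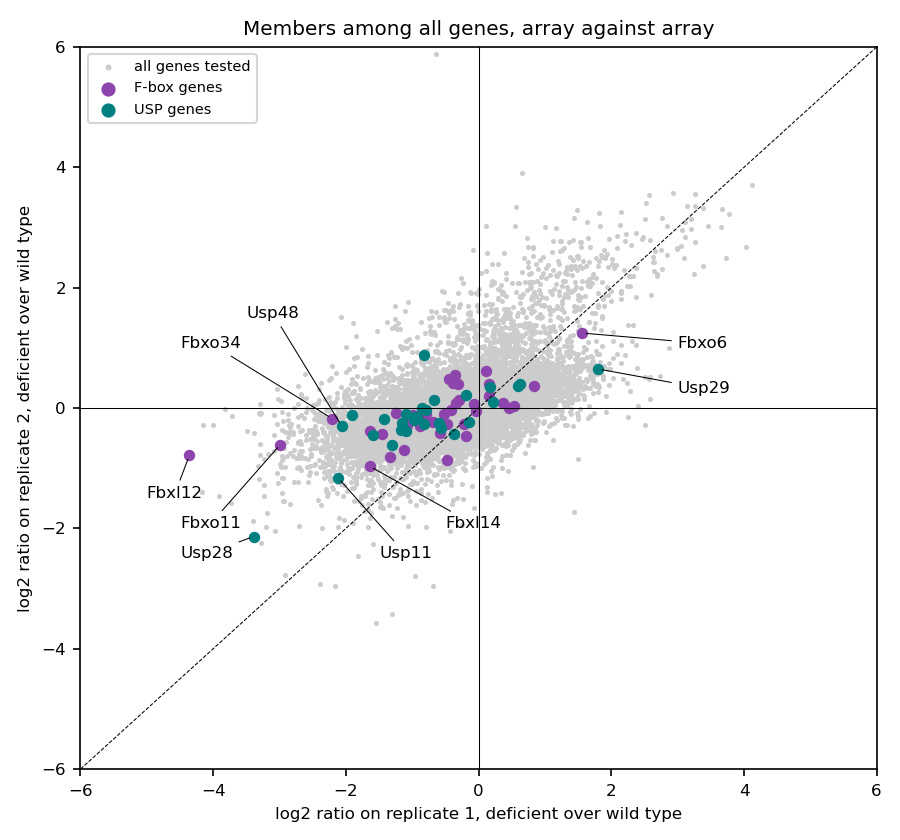
Log2 ratio on replicate 2 (y axis) against replicate 1 (x axis) for all 9932 genes (grey), F-box genes (purple) and USPs (green), with the line of equal ratios dashed. Most members lie left of 0 and above the dashed line, at larger negative ratios on replicate 1, while Usp28 and Fbxo6 lie far from 0 on both axes.

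The partners of these enzymes were listed apart. Of 28 SCF core and regulator genes, 26 were measured, with a median of -0.56, and 0 were called by limma. At an unadjusted p under 0.05, 3 of the 26 passed, all lower, beside 1422 lower of all 9932 genes. Skp1 (-0.76 and -0.64) was below 0 on both arrays, while the scaffold Cul1 (-1.44 and 0.27) had opposite signs. The COP9 signalosome subunits Cops7b (-1.13) and Cops8 (-0.98), and Dcun1d1 (-1.04) and Uba3 (-0.78), which act in the attachment of Nedd8 to cullins, had the smallest adjusted p-values (0.0636 to 0.257). Of F-box genes under other names, Ccnf alone was measured (0.18). Of the other cullin ligase genes 2 of 17 were lower, beside 5.97% of all genes. These were Socs3, the cytokine signalling inhibitor (-1.44, adjusted p = 0.0116), and Crbn, the target of thalidomide (-1.40, adjusted p = 0.0151). No Crbn probe passed the background criterion in both channels on both arrays, so its mean rests in part on a dim level.

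Deubiquitinases of other families had a median of -0.19 and 3 of 28 lower, beside a median of -0.12 and 5.97% of all genes: Mindy2 (-1.63), Stambpl1 (-1.28) and Zup1 (-1.23). Cyld, an inhibitor of NF-kB signalling, had -0.95 and did not pass. Of 32 ubiquitin, E1 and E2 genes 1 was lower, Uba1, the main ubiquitin-activating enzyme. Its ratios were -3.39 on replicate 1 and -0.41 on replicate 2 (mean -1.90, adjusted p = 3.18e-04), and the list's median was -0.08. No probe of Uba1, Mindy2, Stambpl1 or Zup1 passed the background criterion in both channels on both arrays. The means of these genes rest in part on a dim level and are not measured folds. Ube2o (1.12), Ube2j2 (-1.05) and Birc6 (-0.90) did not pass. Of 13 USP partner genes 0 were called by limma, with 1 at an unadjusted p under 0.05, and the median was -0.21; Wdr20, which activates Usp12 and Usp46, had -1.06, and Wdr48, the partner of Usp1, had -1.48 and 0.19.

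Of 36 known substrate genes 22 were measured, and 4 were called, all lower, beside 5.97% of all genes, with a median of -0.31. They were Trp53bp1 (-2.97 and -0.36, mean -1.67), Myc (-1.72 and -1.42, mean -1.57), cyclin E1 (Ccne1, -1.96 and -1.09, mean -1.53) and cyclin D2 (Ccnd2, -1.64 and -1.20, mean -1.42), with adjusted p-values from 0.00232 to 0.0127. No probe of Trp53bp1 or Ccne1 passed the background criterion in both channels on both arrays, so their means are not measured folds. Trp53bp1 and Myc are known partners of Usp28, and transcript ratios say nothing of their proteins. The Myc probe reported here missed that background criterion as well, so -1.57 is not a measured fold either. With both channels required to pass, another Myc probe stood for the gene, and its mean ratio was 0.29 (limma adjusted p = 0.61). Bcl6, the target of Fbxo11, had -0.02 and 1.70 (mean 0.84) and did not pass.

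**Figure D5:**
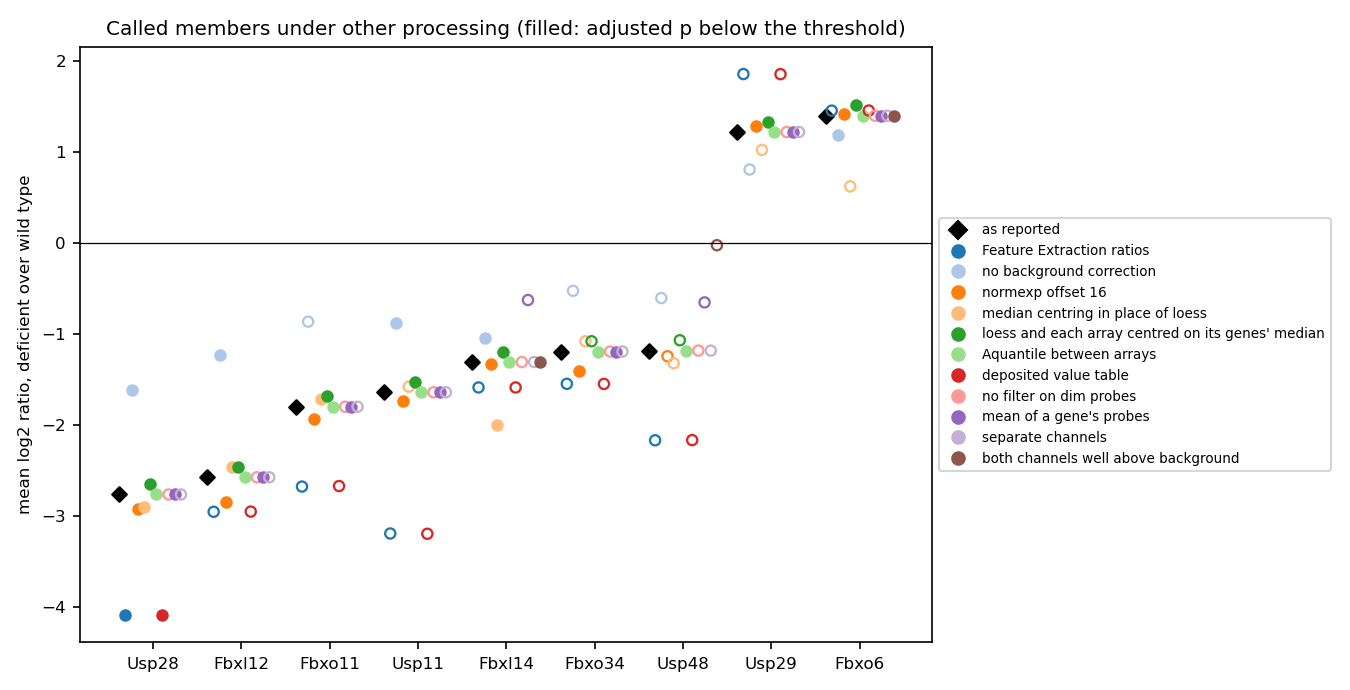
Mean log2 ratio (y axis) of the 9 called genes as reported (black diamonds) and under each other processing setting (coloured), filled where the adjusted p is under 0.05. No called gene changes sign, Usp28 keeps most filled points, and Usp48 lies near 0 where both channels had to pass.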

How the data were processed

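Spot intensity values (mean signal and local background) came from 2 deposited scanner files, made with Agilent Feature Extraction 9.5.3.1 per the file headers and the submitters' processing notes. The authors' deposited value table holds log10 ratios of red over green, within 0.00500 of those in the scanner files. Linear amplification preceded chemical labelling, per the labels' protocols. Both arrays share 1 slide and scan time.

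Background was corrected by normexp (offset 50) and ratios by loess within arrays, control spots at weight 0. Outlier spots were left out (255 and 195) and duplicate spots averaged. The filter kept 12622 of 41174 probes and 9932 genes. Of the probes, 24375 were named by accession and 8727 by symbol through RefSeq (GRCm38.p6). The names of 8072 stayed as on the array, and member genes keep their array names. Probe coordinates are those of the files (mm8); exons were not assigned. Each gene's log2 ratio was set against 0 by limma 3.58.1, run in R 4.3.3 (two-sided, Benjamini-Hochberg over 9932 genes), with 1 residual degree of freedom; statmod 1.5.0 served the separate-channel fit. The smallest absolute ratio called was 1.18. The 2 arrays limit the precision, and the procedure was tested on simulated data. The simulated ratios had the same variance for every gene and no background floor. That test therefore cannot vouch for calls of dim genes or of genes whose arrays differ widely. A bound replaces the dim level on each array by the lowest signal among probes that passed the background criterion in that channel. The probe's own signal is used if greater. The bound is then averaged over the 2 arrays, so the difference on 1 array alone can be smaller. Dye bias can affect the bound.

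Named genes were the called members, the 12 highest and 12 lowest, members with a listed role or with probes of opposite sign, and up to 4 genes of each list by adjusted p; other genes were named after their values were seen. The members and lists were chosen with earlier results of these data known. Alternatives were other background corrections, normalizations, filters and probe rules, the deposited table, separate channels and each array alone.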

Additional observations from a re-analysis of the deposited data

How the results depend on the processing

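Counts of calls depended on the processing more than directions did. Among all genes, 364 were higher and 593 lower as reported; the counts were 50 and 65 with the Feature Extraction ratios and likewise with the deposited value table, 69 and 348 with median centring in place of loess, 552 and 216 with both channels required, and 0 and 0 by limma both without a filter on dim probes and with separate channels. Without background correction 189 were lower. Among the F-box and USP genes, 2 were higher and 7 lower as reported; the counts were 0 and 1 with either of those ratios, 1 and 4 without background correction, 0 and 4 with median centring, 1 and 2 with both channels, 0 and 0 without the filter, and 0 and 0 with separate channels. At an unadjusted p under 0.05, 5116 genes and 22 members passed without the filter and 1987 and 12 with separate channels, against 2175 and 16 as reported. The members' median stayed below that of all genes in each setting, by -0.48 to -0.14, and was -0.14 without replicate 1 and -0.68 without replicate 2. Myc turned to 0.29 with both channels, where another probe represents it. No called member changed sign, and 10 of the 39 uncalled members followed through the settings did. The test of each array's ratio is itself paired, since an array holds both genotypes. A slide block was not run, as there was 1 slide. Red channel background and 2 arrays limit dim genes.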
